A study of Mus musculus with 6 samples.

Results

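miR-7a is a microRNA, a short RNA that guides Argonaute proteins to messenger RNAs matching its seed, the bases near its 5′ end. It was followed here as 1 array probe, mmu-miR-7a, of the 599 mouse miRNA probes measured in the series. The probe was taken by its name, and it was chosen by its measured difference between forskolin and control cultures, so that difference is given below as a description with no test. The samples were cultured arteriolar smooth muscle cells from mouse kidney, a primary line at passage 7 that descends from renin-making cells, on a mixed 129Sv/C57Bl6 background. The 3 control cultures were left untreated. The 3 forskolin cultures were kept for 24 h with 10 µM forskolin, which switches on adenylyl cyclase, and 100 µM IBMX, which blocks the breakdown of cyclic AMP. A second dose of 10 µM forskolin followed for the last 30 min. No vehicle is named for the controls, forskolin was not given without IBMX, and every culture came from this 1 line, so the values speak for this line and this combined treatment.

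miR-7 is conserved across bilaterian animals and is known for high levels in neurons and in hormone-secreting cells of the pituitary and pancreas. In mammals its known targets include the EGF receptor and components of insulin signalling, and in mouse pancreatic beta cells miR-7a restrains secretion. The circular RNA Cdr1as binds miR-7 at many sites, and miR-671 directs the cutting of Cdr1as. The question of the comparison was how the miRNAs of these cells differ after a treatment meant, per the title of the series, to bring on renin. Renin itself was not analysed here.

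The sequences show what the probe can and cannot tell apart. Each is written 5′ to 3′ with the seed, bases 2 to 8, in capitals, and the array targets come from the scanner files.

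mmu-miR-7a, array target: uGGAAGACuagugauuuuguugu

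mmu-miR-7b, array target: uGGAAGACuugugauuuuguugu

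mmu-miR-7a*, array target: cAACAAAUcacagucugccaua

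mmu-miR-7a-2-3p, RefSeq: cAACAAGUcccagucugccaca

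The target of the mmu-miR-7a probe was identical to the mature miR-7a-5p of 2 genes in RefSeq's miRNA table (build GRCm38.p6). The gene Mir7-1 carries it at chr13:58392841-58392863 on the minus strand, and its hairpin lies within Hnrnpk, on the same strand as this gene for an RNA-binding protein. The gene Mir7-2 carries it at chr7:78888295-78888317 on the plus strand, and no other gene of the RefSeq table spans that hairpin. The probe therefore reads the sum of both copies. The star probe matched the passenger strand of Mir7-1 alone. The passenger strand of Mir7-2 differs from it by A7G, A10C and U21C, with positions counted from 1 at the 5′ end. The target of miR-7b, whose gene lies on chromosome 17, differs from that of miR-7a by A10U and shares its seed. Among the 599 probes miR-7b was the 1 other with this seed, and the next nearest target, miR-338-3p, was 7 edits away. The hairpins of both miR-7a genes are given with their mature strands in capitals, to show the shared 5′ arm and the differing 3′ arms.

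Mir7-1 hairpin (GRCm38.p6, chr13:58392779-58392886, minus strand): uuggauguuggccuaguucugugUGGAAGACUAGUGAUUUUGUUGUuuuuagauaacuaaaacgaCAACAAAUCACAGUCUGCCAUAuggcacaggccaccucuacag

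Mir7-2 hairpin (GRCm38.p6, chr7:78888277-78888373, plus strand): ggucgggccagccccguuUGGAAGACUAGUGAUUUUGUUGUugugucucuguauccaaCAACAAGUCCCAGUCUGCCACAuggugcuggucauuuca

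Each array had 3968 spots, with 5 for each miRNA probe and 669 left empty. The empty spots averaged 131.2 to 200.1 in the 3 samples stained with Cy3 and 31.6 to 34.9 in the 3 stained with Cy5. Detection required a probe's 5 spots to average more than 3 SDs of the empty spots above the mean of those spots. By this rule 162 to 225 probes were detected in 5 samples and 585 in forskolin sample 2, which stands apart. With dim miRNA probes as the background instead, that sample had 178. Tests ran on the 167 probes that all 3 samples of either group detected, of which 151 were detected in all 6. Smooth muscle markers miR-143, miR-145 and miR-145* and the 4 mesenchymal markers were detected in all 6 samples, while miR-1, miR-133a and miR-133b were detected only in forskolin sample 2.

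miR-7a was detected in 6 of 6 samples. Its 5 spots read on average 669.5, 99.4 and 789.3 intensity units in controls 1 to 3, before any background was removed. In forskolin samples 1 to 3 they read 72.4, 354.5 and 110.5. Controls 1 and 3 and forskolin 2, the 3 brightest, carried Cy3 and the other samples Cy5. Above the mean of the empty spots, the controls stood at 538.3, 67.8 and 589.2 units, which is 37.7, 36.6 and 41.2 SDs of the empty spots. The forskolin samples stood at 39.8, 162.3 and 75.5 units, or 8.75, 23.0 and 15.3 SDs. In units of this background spread every control lay above every forskolin sample, and the lowest sample, forskolin 1, still cleared the detection limit. Set against dim miRNA probes rather than empty spots, miR-7a was also detected in all 6 samples, at 17.5 to 84.9 SDs.

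**Figure D1:**
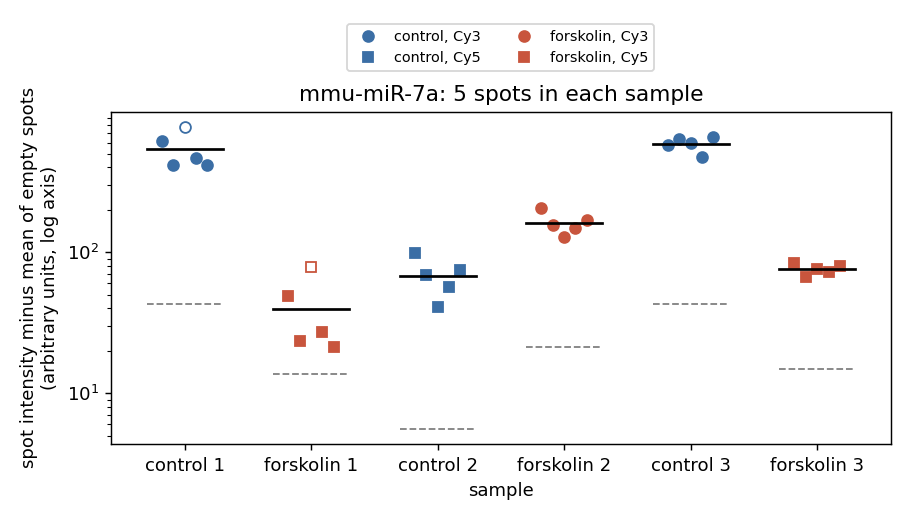
Intensity of each of the 5 mmu-miR-7a spots above the mean of the empty spots (arbitrary units, log axis) in the 6 samples, with circles for Cy3, squares for Cy5, black lines for the sample mean and dashed lines for the detection limit of 3 SDs of the empty spots. All 30 spots lie above their sample's limit, and the open symbols mark 1 spot of pair 1 whose pixels scattered widely in both samples.

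Raw levels within 1 dye did not separate the groups fully. Among the Cy3 samples both controls were above forskolin 2, but among the Cy5 samples control 2, at 67.8 units, was below forskolin 3, at 75.5. Control 2 was dim as a whole: the 151 probes detected in all samples had a median of 134.4 units there, against 504.4 to 1322 in the other 5 samples. As a share of that sample median, miR-7a was at 64.8%, 50.4% and 44.6% in controls 1 to 3 and at 6.80%, 18.1% and 15.0% in forskolin samples 1 to 3. On this scale the groups did not overlap, whichever dye was used.

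After background correction and quantile normalization, the log2 levels of miR-7a were 9.05, 8.68 and 8.16 in controls 1 to 3. They were 7.04, 7.39 and 7.17 in forskolin samples 1 to 3. Controls averaged 8.63 ± 0.44 and forskolin cultures 7.20 ± 0.18 (SD, n = 3 each), with the lowest control above the highest forskolin sample. Within Cy3, controls at 9.05 and 8.16 stood beside 1 forskolin sample at 7.39, and within Cy5, 1 control at 8.68 stood beside forskolin samples at 7.04 and 7.17. Control levels were spread more widely than forskolin levels, and control 3 was the lowest of them. The authors' own series table gave the same order of controls and the same order of forskolin samples, at 373, 360 and 194 units in controls 1 to 3 and 35, 92 and 69 in forskolin samples 1 to 3. Its means were 309 ± 99.8 and 65.3 ± 28.7 units (SD, n = 3 each). In RNA from a whole culture, fewer cells with miR-7a and less miR-7a per cell cannot be told apart.

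**Figure D2:**
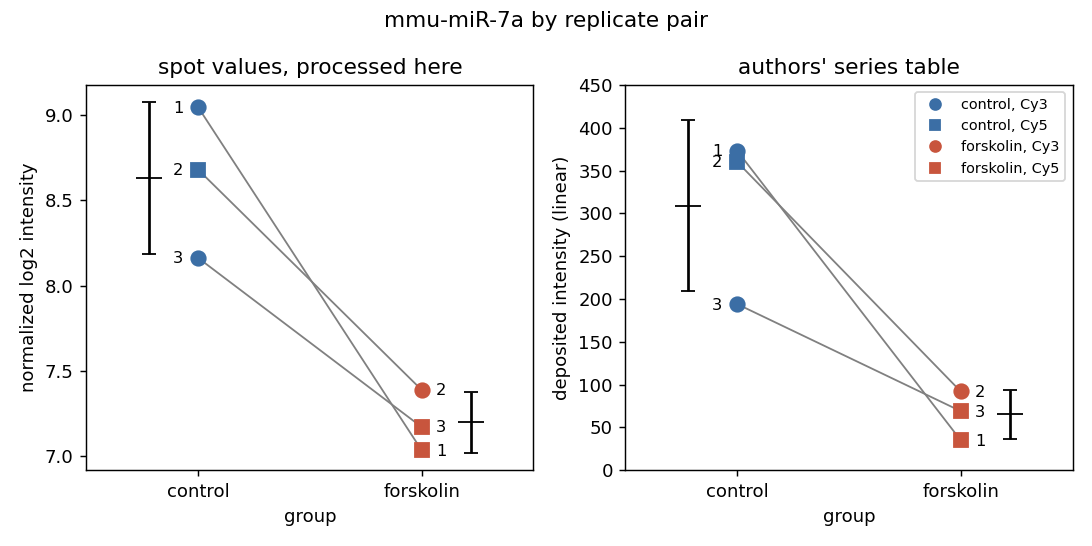
Level of mmu-miR-7a in the 2 samples of each replicate number, joined by lines, as normalized log2 intensity (left) and as the authors' deposited linear intensity (right), with the group mean and SD beside the points (n = 3). All 3 lines run downward from control to forskolin, and control 3 is the lowest control on both scales.

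In a fit with terms for treatment and dye, the log2 fold change of miR-7a was -1.40 (SE 0.29), or 2.63-fold lower in forskolin cultures. The probe was selected on this contrast, so the value is a description. Of the 167 probes tested, 6 were called lower in forskolin, 3.59% of the probes, and 5.99% were called in either direction. Control and forskolin levels did not overlap, with forskolin lower, for 13.2% of the probes. In the order of fold change miR-7a was the sixth lowest probe, between miR-106a at -1.48 and miR-690 at -1.44 below it and miR-18a at -1.18 and miR-92a at -1.14 above it. Each of these 4 lies within 1 SE of the value of miR-7a.

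On the normalized scale the ratio of forskolin to control was below 1 in all 3 control and forskolin pairs that share a replicate number. The same held for 25.7% of the tested probes. The ratio of miR-7a was 0.248 in pair 1, 0.409 in pair 2 and 0.503 in pair 3, or 4.03-fold, 2.45-fold and 1.99-fold lower. The authors' series table gave 0.0938, 0.256 and 0.356, or 10.7-fold, 3.91-fold and 2.81-fold lower. Ratios of the spot means above empty spots, relative to the median ratio of the 151 probes in the same pair, were 10.4-fold, 2.66-fold and 3.23-fold lower. Without that scaling the ratios were 0.0740, 2.40 and 0.128. Unscaled, forskolin was thus the higher in pair 2, where the median ratio of the 151 probes was 6.38. Pair 1 had the largest difference on each of these scales, and the order of pairs 2 and 3 depended on the scale. The normalized values, which include an offset of 50 units, were closer together than those of the other scales, and the cause was not tested. Pairs 1 and 3 had forskolin in Cy5 and pair 2 had it in Cy3. On the normalized scale, in the series table and relative to the median ratio, the direction was the same with both dye orientations. Without scaling it was not. Among the 167 tested probes miR-7a had the lowest difference in pair 1, the sixth lowest in pair 2 and the fifteenth lowest in pair 3.

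**Figure D3:**
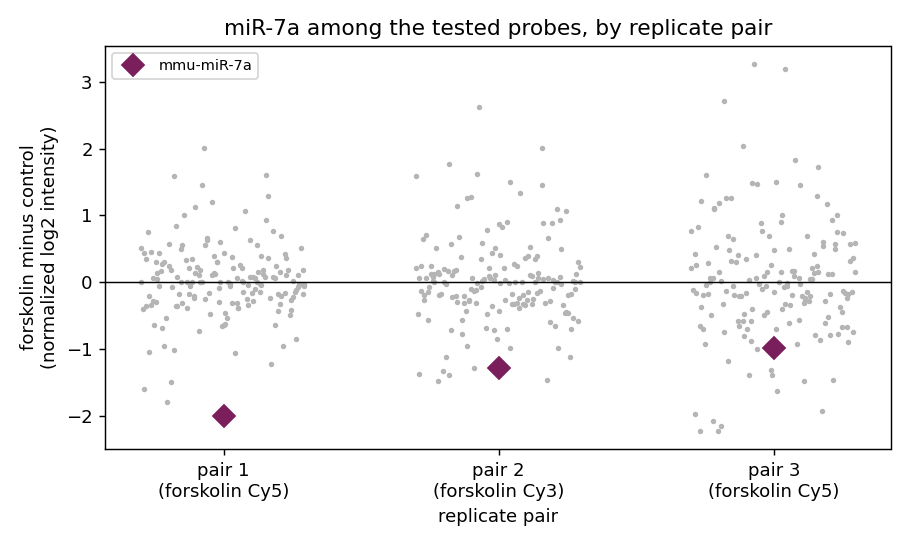
Difference between forskolin and control in normalized log2 intensity for each tested probe (grey points) in each replicate pair, with mmu-miR-7a as a diamond. The diamond lies at -2.01, -1.29 and -0.99 in pairs 1 to 3, in the lower part of every column and at the bottom of pair 1.

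Samples of the same replicate number deviated together from their group means. With the replicate number as a block beside the dye term the fold change was -1.40 (SE 0.30). Pairs in opposite dyes must give the same value with or without the block, so this is no separate check. The number of called probes did move, from 10 to 30 of 167. Without both samples of pair 1, the log2 fold change was -1.10 (2.14-fold lower), and without both of pair 3 it was -1.60 (3.04-fold lower). Leaving out 1 sample at a time gave -1.22 to -1.60.

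The 15 ratios of single spots, each spot set against the same spot of the paired sample and relative to the pair's median, were all below 1. They ran from 7.60-fold to 15.2-fold lower in pair 1, from 2.04-fold to 3.03-fold in pair 2 and from 2.75-fold to 3.98-fold in pair 3. The 5 spots of a sample share a hybridisation and are not replicates of the treatment. Setting spot against spot assumes that the paired samples shared an array, which was inferred from these data. In pairs 1 and 2 the same spot was the brightest in control and in forskolin, and spot values of the paired samples correlated at r = 0.996 and 0.990 over 5 spots, against 0.0727 in pair 3. In pair 1 the brightest spot had a pixel SD of 88.9% of its mean in control and 84.5% in forskolin, beside 6.32% to 17.4% for the other 4 spots. It gave the smallest difference of the 5 spots, and without it the difference in pair 1 was 12.3-fold rather than 10.4-fold.

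The dye is a measure the choice of probe did not use. In the same limma fit miR-7a differed between Cy5 and Cy3 by -0.10 on the log2 scale (SE 0.29), with an adjusted p of 0.997. None of the 167 probes was called for the dye, a share of 0.00%, and 1 passed at an unadjusted p under 0.05. With arrays scaled to the spike controls, an alternative added after seeing the data, the dye difference of miR-7a was -1.78 (SE 0.43) at an adjusted p of 0.0410. With no normalization it was -1.72 (SE 0.63) at an adjusted p of 0.0629. Both settings leave the general difference in brightness between dyes in place.

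The other probes of the family were dimmer than miR-7a in every sample. miR-7a*, the passenger strand of Mir7-1, was at 21.0, 4.73 and 133.4 units above the empty spots in controls 1 to 3. These are 1.47, 2.56 and 9.33 SDs of the empty spots. In forskolin samples 1 to 3 miR-7a* was at 8.62, 47.6 and 25.5 units, or 1.89, 6.73 and 5.18 SDs. It was detected in control 3, forskolin 2 and forskolin 3, and in the first and the last of these when set against dim miRNA probes. Normalized, controls averaged 6.61 ± 0.20 and forskolin cultures 6.54 ± 0.07 on the log2 scale (SD, n = 3 each), and the groups overlapped. The pairs differed by 0.08, -0.11 and -0.19. Above empty spots, relative to the median ratio of the 151 probes, the pairs of miR-7a* differed by -0.91, 0.66 and -1.12 on the log2 scale. In the authors' series table it read 18, 19 and 40 units in controls and 22, 25 and 31 in forskolin samples, again with overlap. It did not enter the test set, so whether its difference departs from that of miR-7a was not tested.

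miR-7b was detected in forskolin 2 alone, the sample with 585 detected probes, and in no sample when set against dim miRNA probes. It stood at 1.40, 0.402 and 1.07 SDs of the empty spots above their mean in controls 1 to 3 and at 0.0524, 4.74 and -0.404 SDs in forskolin samples 1 to 3. In control 1 a single spot, with a pixel SD of 92.7% of its mean, read 85.9 units above the empty spots while the other 4 read -5.35 to 19.5. The probe that differs from miR-7a by A10U was thus not well above background in any control, including those where miR-7a stood at 36.6 SDs or more.

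Of the strands of miR-671, the miRNA that directs the cutting of Cdr1as, 1 was tested. miR-671-5p was at 7.16, 6.73 and 7.44 on the log2 scale in controls 1 to 3 and at 7.13, 6.76 and 7.59 in forskolin samples. The groups overlapped, and on this scale the samples of a pair lay close together. Above empty spots, relative to the median ratio of the 151 probes, the ratios of forskolin to control were 0.721, 1.85 and 1.01 in pairs 1 to 3. In control 2 miR-671-5p stood 6.04 units, or 3.26 SDs, above the empty spots and was not detected against dim miRNA probes. Its log2 fold change was 0.04 (SE 0.32) at a limma adjusted p of 0.962. miR-671-3p was detected in forskolin 2 alone and was not tested. Cdr1as itself was not analysed here.

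**Figure D4:**
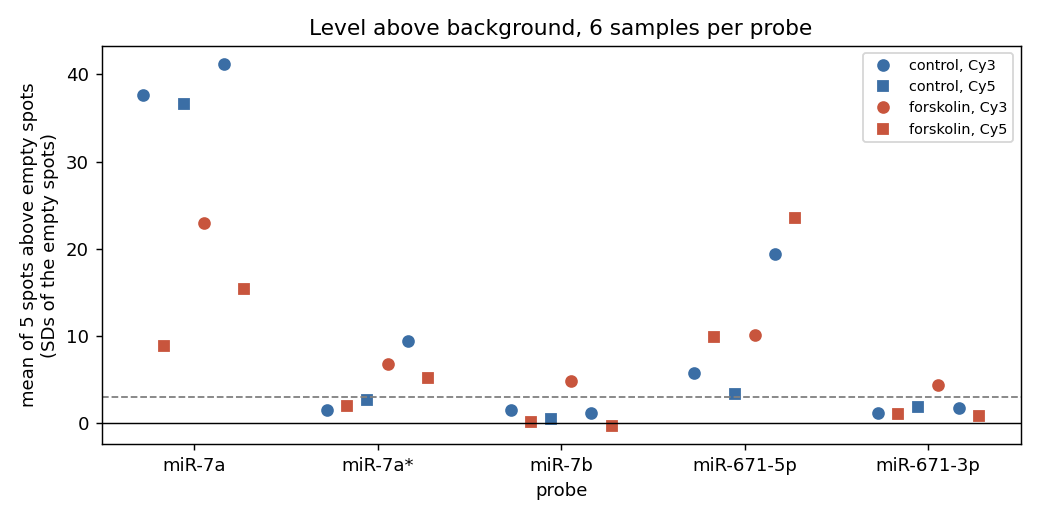
Mean of the 5 spots above the empty spots, in SDs of the empty spots, for miR-7a, its relatives and both strands of miR-671 in the 6 samples (circles Cy3, squares Cy5), with the detection limit of 3 SDs dashed. miR-7a lies between 8.75 and 41.2 SDs with all controls above all forskolin samples, while miR-7b passes the limit in forskolin 2 alone.

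Since 1 copy of miR-7a lies in a host gene, other miRNAs known to lie in introns of protein-coding genes were set beside it. Of 37 such probes, miR-7a included, 25 were tested. Of the 24 others, 11 had positive and 13 negative fold changes, and the median on the log2 scale was -0.03 against -0.01 over all tested probes. In limma 2 of the 24 rose and 0 fell, and 4 passed an unadjusted p of 0.05. Over all 167 tested probes 2.4% were called higher, 3.59% lower and 5.99% in either direction, and 19.2% passed the unadjusted p. With 24 members, nothing particular to the intronic list is read from its counts. The calls were miR-218, from introns of the Slit genes, at 2.63 (SE 0.41, adjusted p 0.0156) and miR-30c, with 1 copy in Nfyc, at 1.55 (SE 0.20, adjusted p 0.0142). The next by p were miR-26b, from an intron of a Ctdsp gene, at 0.80 (SE 0.28, adjusted p 0.173) and miR-342-3p, from Evl, at 0.80 (SE 0.29, adjusted p 0.185). miR-106b, miR-93 and miR-25, which share an intron of the replication gene Mcm7, had -0.53, -0.73 and -0.43, with limma adjusted p of 0.327, 0.327 and 0.341.

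Markers of cell types that are rich in miR-7 were looked for as well. Of 8 neural and endocrine markers 1 was detected outside forskolin 2, miR-128. It differed by -0.08 on the log2 scale (SE 0.27), and its limma adjusted p was 0.908. miR-375 of endocrine cells and miR-9, miR-9* and miR-124 of neurons were among the other 7. The summed level of the 8 probes in the authors' series table was 240 to 531 units in controls and 329 to 419 in forskolin samples. The 2 endothelial markers were detected in forskolin 2 alone, and so were 6 of 7 epithelial and 4 of 5 blood markers. Of the kidney tubule markers miR-192 and miR-194 were each detected in 1 control and in all 3 forskolin samples. They therefore entered the test through the forskolin group alone. Their log2 fold changes were 0.12 and 0.33 at limma adjusted p of 0.795 and 0.428. In the authors' series table the tubule list of 3 summed to 46 to 76 units in controls and 80 to 91 in forskolin samples, without overlap. The mesenchymal list of 4 summed to 41925 to 46173 units in controls and 29264 to 36320 in forskolin samples, again without overlap, and none of its members was called. The smooth muscle list of 6 overlapped, at 13131 to 16753 and 10730 to 15692 units. So did the endothelial list at 14 to 18 and 14 to 27, the epithelial at 38 to 46 and 42 to 71, and the blood list at 15 to 61 and 24 to 52. Summed above the empty spots instead, without scaling between samples, the tubule list overlapped, at 9.92 to 242 and 43.1 to 179 units. The mesenchymal list overlapped there too, at 22316 to 48392 and 38922 to 42642. As a background, the groups did not overlap for 39 of the 167 tested probes on the normalized scale, whichever group was higher. The part of any of these lists in the difference of miR-7a was not tested.

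The probes whose levels followed miR-7a most closely over the 6 samples were miR-92a (r = 0.913), miR-214* (0.909), miR-17 (0.877), miR-92b (0.875) and miR-222 (0.870). Of these, miR-92a, miR-17 and miR-222 fell, at limma adjusted p of 0.0454, 0.0142 and 0.0465. They were picked for likeness to a probe chosen on this contrast, so these calls are not independent of that choice. These calls were lost at the 75th percentile, with no normalization, with spike scaling and with no filter, where limma called 0 probes lower. Not all 3 could hold with loess between the dyes of a pair, with the median of spots or without control 3, where 2 probes were called lower. The same is true with empty spots subtracted and without forskolin 3, where 1 was. The rises of miR-218 and miR-30c could not both hold with no filter or without control 3, where 1 probe was called higher. All 3 falls and both of these rises were also lost without control 2, without forskolin 2 and without pair 1. There limma called 0 probes, and 20, 21 and 22 passed an unadjusted p of 0.05. miR-214* and miR-92b had log2 fold changes of -0.37 and -0.84 at adjusted p of 0.390 and 0.191. Running most opposite were miR-652 (r = -0.966), miR-212 (-0.941) and miR-30c (-0.926). Of 166 other tested probes, 12 had an r above 0.8 and 16 an r below -0.8. These are descriptions over 6 samples from 3 pairs, and the difference between groups is part of each r. Once the group means were taken out, the r with miR-7a was 0.39 for miR-92a, -0.46 for miR-17 and -0.11 for miR-222. The highest such r were those of miR-877 (0.919), miR-125a-5p (0.908), miR-699 (0.896), miR-423-5p (0.861) and let-7c (0.846). None of these 5 was called, and in the authors' series table their r over the samples was between -0.23 and 0.49.

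The difference in miR-7a was negative in 25 of 25 alternative fits, from -0.80 to -2.10, or 1.74-fold to 4.28-fold lower. Some of these fits could not change the value, since neither the choice of tested probes nor the block beside the dye term affects it. Control and forskolin levels did not overlap in 23 of these 25. They overlapped with no normalization and with scaling to the spike controls, settings that keep the general brightness of each sample and dye. The value was farthest from 0 when the mean of the empty spots was subtracted with no offset.

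**Figure D5:**
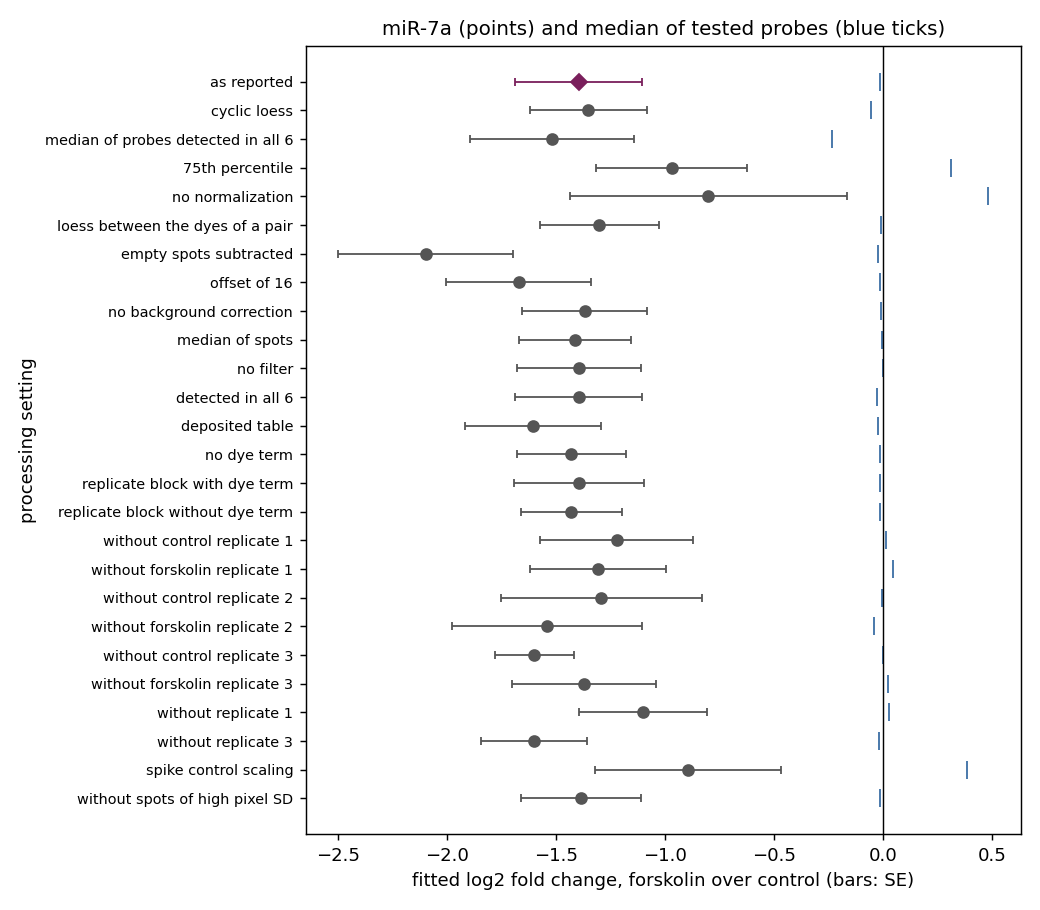
Fitted log2 fold change of miR-7a with its SE under each processing setting, with blue ticks for the median of the tested probes under the same setting. All points lie between -0.80 and -2.10, and the ticks move to 0.31 with the upper-quartile (75th percentile) scaling, 0.48 without normalization and 0.39 with spike scaling.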

How the data were processed

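Small RNA of each culture was labelled with Cy3 or Cy5 and run on LC Sciences arrays, per the labels' protocols. The scanner files hold a mean intensity per spot in 1 dye and the SD of its pixels, before subtraction of local background, per the file headers. The sources used here name neither scanner nor software. The authors' deposited series table holds 1 linear intensity per probe in whole numbers, with medians of 8 to 11 per sample. Those medians lie below the mean of the empty spots in every sample. In control 2 the median probe read 34.0 units in the spots and 11 in the series table, while miR-7a read 99.4 and 360. A single factor for that sample could not give both, so more than a change of scale had been made. The log2 values of the series table correlated with spot values above empty spots at 0.996 to 0.999 over the tested probes. How samples were scaled to each other is unknown. The series table served as an alternative, for ratios within a pair, and for group levels and list sums. All of these comparisons between samples rest on that unknown scaling.

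Spot intensities were corrected by normexp (offset 50) over all spots, averaged over the 5 spots, log2-transformed and quantile-normalized over the 599 probes (limma 3.58.1, R 4.3.3). limma's lmFit and eBayes were run on 167 probes with treatment and dye terms, Benjamini-Hochberg adjustment and a threshold of 0.05, two-sided. Folds refer to intensity plus the offset. The steps were also run on simulated data with no deviations shared within a pair, and no result given here rests on that run. miR-7a, the lists and the tests were chosen with earlier results of these data known. Beside miR-7a the text names its relatives by name, seed and edits, miR-671, its neighbours in fold change, the probes of most and least alike profile, the 4 intronic miRNAs of smallest p, and detected markers. The markers miR-9, miR-9*, miR-124, miR-375, miR-1, miR-133a and miR-133b and the Mcm7 miRNAs were named outside that rule.

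Deviations from the group means correlated within a replicate number at 0.397, 0.473 and 0.359 over 167 probes. The numbers were therefore taken to pair the samples, from these data and not the labels, and the 2 samples of a pair carried opposite dyes. Each culture was grown and harvested on its own, per the design text. The number of arrays limits the precision.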

Additional observations from a re-analysis of the deposited data

How the results depend on the processing

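Of the 25 alternatives, 21 moved the log2 fold change of miR-7a by less than the pooled SD between replicates, 0.34. Some of these could not move it: no filter, probes detected in all 6, and the replicate block with the dye term all gave -1.40 by construction. The fits without a dye term, with and without the block, likewise had to share 1 value, -1.43. The other 4 gave -0.97 (75th percentile), -0.80 (no normalization), -2.10 (empty spots subtracted) and -0.90 (spike control scaling, added after seeing the data). Over the tested probes the median itself moved to 0.31, 0.48 and 0.39 in the first, second and last of these, and relative to it miR-7a stood at -1.28 in each, as scalings that shift all probes of a sample alike must give. Called probes numbered 10 as reported. They were 5 with no normalization, 6 with loess between the dyes of a pair, 4 with empty spots subtracted, 5 with the median of spots, 1 with no filter and 599 probes tested, 18 with no dye term, 30 and 24 with the replicate block with and without the dye term, and 3 with spike scaling. Leaving out samples gave 0 to 25 calls in limma. The count was 0 without control 2, without forskolin 2 and without pair 1, where 20, 21 and 22 passed an unadjusted p of 0.05, 3 without control 3, 5 without forskolin 3 and 25 without pair 3. Calls lower in forskolin were 0 of 7 at the 75th percentile and 0 of 5 with no normalization, against 6 of 10. The cause was not tested. The dye difference of miR-7a was -1.78 with spike scaling, -1.72 with no normalization, -0.59 at the 75th percentile and -0.37 to 0.15 over samples left out, and miR-671-5p turned to -0.19 (cyclic loess), -0.55 (median of detected probes) and -0.026 (deposited table), with -0.61 to 0.61 over samples left out. Without pair 2 treatment and dye could not both be fitted, so that alternative was not run.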
